A study of Mus musculus with 2 samples.

Results

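The genes described are 10 ATPases of the SNF2 family that move, space or evict nucleosomes, measured in sorted intestinal cells of wild-type mice and of mice in which the remodeller gene Srcap was knocked out. They are Chd1, Chd2, Chd3, Chd4, Chd6, Chd7, Chd8 and Chd9 of the CHD group, Smarca5 of the ISWI group, and Hells, a related ATPase that belongs to neither group and is known from DNA methylation and heterochromatin. They were taken by gene symbol, without a cutoff on their values but with earlier results of these data known. All 10 of the 10 named genes were found among the 17840 genes listed. Transcripts were measured by RNA sequencing of total RNA, with 1 library per genotype. The Srcap knockout library came from Lgr5-positive intestinal stem cells of Srcapflox/flox; Lgr5-Cre+ mice given tamoxifen, and the wild-type library from the same kind of cells of Srcap+/+; Lgr5-Cre+ mice, so both groups carry the Cre, driven by Lgr5. Cells were dissociated from crypts, sorted by GFP intensity and not cultured. The sources used here do not give the number, age or sex of the mice, or which exons are floxed.

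CHD proteins pair an ATPase motor with chromodomains, which bind methylated histone tails or DNA, while SMARCA5 (also called SNF2H) is the motor of ISWI complexes that space nucleosomes evenly. The motors work in assemblies: CHD3 and CHD4 in the histone deacetylase complex NuRD, SMARCA5 with partners such as BAZ1A, BAZ1B, BPTF and RSF1, and HELLS with CDCA7. In the intestinal crypt, chromatin remodellers act in fast-dividing stem and progenitor cells, and CHD8 is known as a binding partner of beta-catenin, the effector of Wnt signalling.

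Differences among the 10 genes were small and went both ways. Smarca5, Chd1, Chd2 and Chd9 were 25.9% to 50.7% higher in the knockout library, Chd4 was 13.8% lower, and Chd3, Chd6, Chd7, Chd8 and Hells differed by less than 4%. None of the 10 reached 2-fold in either direction. Of 11784 genes tested in the same way 2.61% did so upward and 0.416% downward in knockout cells, so 0 of 10 does not set these genes apart. With 1 library per genotype there is no spread between replicates and no test, so each difference is one between these libraries and not shown to be one between genotypes.

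Upstream sequence is shown for Chd4 and Smarca5, the most abundant members, which differed in opposite directions, and for Chd8, which had nearly the same level in both libraries. Each line gives the first 200 bases of the RefSeq promoter window of GRCm38.p6, which begins 250 bases before the gene's start, read 5′ to 3′ on the gene's strand. These stretches overlap no exon annotated in GENCODE M21. Capitals mark GC boxes (GGGCGG) and CCAAT boxes (CCAAT), searched on both strands.
Chd4 (chr6:125095731-125095930, + strand): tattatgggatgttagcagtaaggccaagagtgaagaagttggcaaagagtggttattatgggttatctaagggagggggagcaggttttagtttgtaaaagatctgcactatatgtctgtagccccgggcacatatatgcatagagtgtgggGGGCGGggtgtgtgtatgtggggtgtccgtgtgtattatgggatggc
Smarca5 (chr8:80739510-80739709, - strand): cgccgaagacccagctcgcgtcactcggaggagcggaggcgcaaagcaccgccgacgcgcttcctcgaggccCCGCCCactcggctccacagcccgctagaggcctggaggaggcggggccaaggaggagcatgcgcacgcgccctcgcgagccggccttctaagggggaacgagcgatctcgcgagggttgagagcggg
Chd8 (chr14:52257811-52258010, - strand): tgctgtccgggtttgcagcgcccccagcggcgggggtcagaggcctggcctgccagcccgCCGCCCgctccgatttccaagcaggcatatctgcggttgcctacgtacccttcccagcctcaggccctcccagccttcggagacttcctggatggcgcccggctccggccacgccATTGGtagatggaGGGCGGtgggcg

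The Chd4 stretch was the poorest of the 3 in CpG dinucleotides, with 3 against 27 for Smarca5 and 17 for Chd8, where the median of 32851 windows was 4. Its GC content was 47.5%, against 72.0% and 70.0%, where the median of all windows was 51.5%. A GC box lay 97 bases before the start of Chd4 and 178 before that of Smarca5, and 2 were marked for Chd8. RefSeq lists a second start for Chd4, whose own stretch (chr6:125095913-125096112) held 17 CpG and 3 GC boxes. Windows were given for 6 of the members, 8 in all. A GC box was in 7 of these 8 and in 24.6% of all windows, a CCAAT box in 3 of 8 and 28.4%, and a TATA box (TATAAA) in 0 of 8 and 9.14%. The stretches searched end short of the start, so a TATA box in the bases nearest the start would have been missed. The count of GC boxes was not set against windows of like GC content. An E-box (CACGTG) was in 0 of 8 and 4.34%. The letters TTCCCGC, a core of sites for the cell cycle factors E2F, were in 1 of 8, that of Hells, and in 2.95% of all. The last letters of TTCCCGC can overlap a GC box on the other strand. No window was given for Chd1, Chd2, Chd3 and Chd7.

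The Srcap transcript, a check of the labels, measured 20.4 FPKM in wild-type and 11.3 FPKM in knockout cells, or 55.7% of the wild-type level. FPKM divides a gene's fragments by transcript length in kilobases and by depth in units of 1000000 mapped fragments, so levels of different genes can be set side by side. From the steps between low values, about 17200000 and 17100000 reads were estimated to be assigned to genes in the wild-type and knockout libraries. The protocols give 59000000 reads per sample on average, and the reason for the gap was not tested. The members' transcripts are long, 5868 to 10515 nucleotides, and about 220 to 4951 reads lay behind a wild-type value and 331 to 4265 behind a knockout value. The 95% intervals below are approximate, come from these reads and cover counting error only. They were computed for the members alone, so the share of all genes that differ by more than counting error is not known. Marker lists of other cells differed between the libraries: the 8 stromal and mesothelial markers summed to 22.1 FPKM in wild-type and 229 FPKM in knockout cells, the 7 myeloid markers to 143 and 347 FPKM, and the 5 endothelial markers to 5.49 and 13.7 FPKM. The 8 Paneth cell markers summed to 38302 and 22595 FPKM, the 8 enterocyte markers to 486 and 827 FPKM, the 6 goblet cell markers to 3681 and 6179 FPKM, the 7 enteroendocrine markers to 416 and 221 FPKM and the 6 tuft cell markers to 14.7 and 10.3 FPKM. All 10 Lgr5 stem cell markers were lower, Lgr5 itself at 5.90 and 2.17 FPKM and Olfm4 at 1457 and 568 FPKM, and the 6 lymphocyte markers found summed to 378 and 584 FPKM. Lyz2 is in both the Paneth cell and the myeloid list, and no marker in these lists was at 0 in either library. The part of these shifts in the members' differences was not tested, and in such sorted bulk samples fewer cells of a type and less RNA per cell cannot be told apart.

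Chd4, the main motor of NuRD, was the most abundant of the 10, at 43.1 FPKM in wild-type and 37.2 FPKM in knockout cells. It was the member with the lowest ratio, 1.16-fold lower, with a log2 ratio of -0.21 and an interval from -0.27 to -0.16. The log2 ratios with an interval are of the values as deposited, and all others of values after a pseudocount of 1 FPKM was added, which pulls those of low genes toward 0. The size of the Chd4 ratio depended on scaling, and it was -0.13 after both libraries were rescaled to the same sum. Its place among genes was not extreme, since 13.2% of the 11784 genes with at least 1 FPKM in either library had a ratio as low or lower. Among the 2170 genes with a mean level between 20 and 50 FPKM, 11.8% did. Chd3, its paralog and also a motor of NuRD, was at 8.08 and 8.32 FPKM, a difference inside counting error (interval -0.08 to 0.17). There were thus 5.33 Chd4 transcripts for each Chd3 transcript in wild-type and 4.47 in knockout cells. Chd5, the NuRD motor of neural tissue, was at 0.25 and 0.12 FPKM and is not counted among the members.

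Smarca5 was the second most abundant, at 15.4 FPKM in wild-type and 20.5 FPKM in knockout cells, 1.33-fold higher (log2 ratio 0.41, interval 0.32 to 0.51). Of the 2099 genes with a mean level between 10 and 20 FPKM, 91.2% had a ratio as low or lower, as did 86.5% of all tested genes. Together with the Chd4 values, this set the ratio of Chd4 to Smarca5 at 2.80 in wild-type and 1.81 in knockout cells, a comparison within each library that no rescaling alters. The other ISWI motor of mammals, Smarca1, was barely detected, at 0.07 and 0.03 FPKM.

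Chd1 and Chd2 form the first CHD subfamily, and CHD1 is known to bind the promoter mark H3K4me3 and to remodel nucleosomes behind RNA polymerase. Chd1 measured 4.24 FPKM in wild-type and 5.34 FPKM in knockout cells (log2 ratio 0.33, interval 0.18 to 0.49). Chd2 was at 3.42 and 4.71 FPKM (0.46, interval 0.30 to 0.62). Both were higher in the knockout library by more than counting error, by 25.9% and 37.7%. At these low levels such ratios were common: among the 3337 genes with a mean level between 1 and 5 FPKM log2 ratios had a median of 0.10 and a robust SD of 0.32, against 0.27 for Chd1 and 0.37 for Chd2 on the same scale. GENCODE M21 places the long noncoding gene 1810026B05Rik on the same strand with 2628 exon bases shared with Chd2, or 18.4% of the exon bases of Chd2, and the sources used here do not say how such reads were divided.

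Chd6, Chd7, Chd8 and Chd9 form the third CHD subfamily. CHD7 is the gene mutated in human CHARGE syndrome, and CHD8 is linked to autism in humans. Chd8 was the most abundant of these, at 9.26 FPKM in wild-type and 9.33 FPKM in knockout cells. Chd7 was at 3.48 and 3.49 FPKM, and Chd6 at 2.40 and 2.43 FPKM. These 3 genes were alike in both libraries within counting error, with intervals of -0.10 to 0.12 for Chd8, -0.16 to 0.17 for Chd7 and -0.17 to 0.21 for Chd6. Chd9 differed from them: it was the scarcest member, at 1.36 FPKM in wild-type and 2.05 FPKM in knockout cells. Its ratio of 1.51-fold was the highest of the 10 (log2 ratio 0.59, interval 0.35 to 0.84), but with the pseudocount it was 0.37, and 77.2% of genes with a mean level between 1 and 5 FPKM had a ratio as low or lower. The antisense gene Gm26590 shares 953 exon bases with Chd8, and the sources used here do not say whether strand was counted.

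Hells, whose product is needed for DNA methylation of repeats, measured 9.43 FPKM in wild-type and 9.06 FPKM in knockout cells. This is 3.92% lower, with an interval of -0.19 to 0.07 that includes 0. The 15 DNA replication genes, with which a gene of dividing cells can be set side by side, had a median log2 ratio of -0.26, against -0.05 for Hells.

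**Figure D1:**
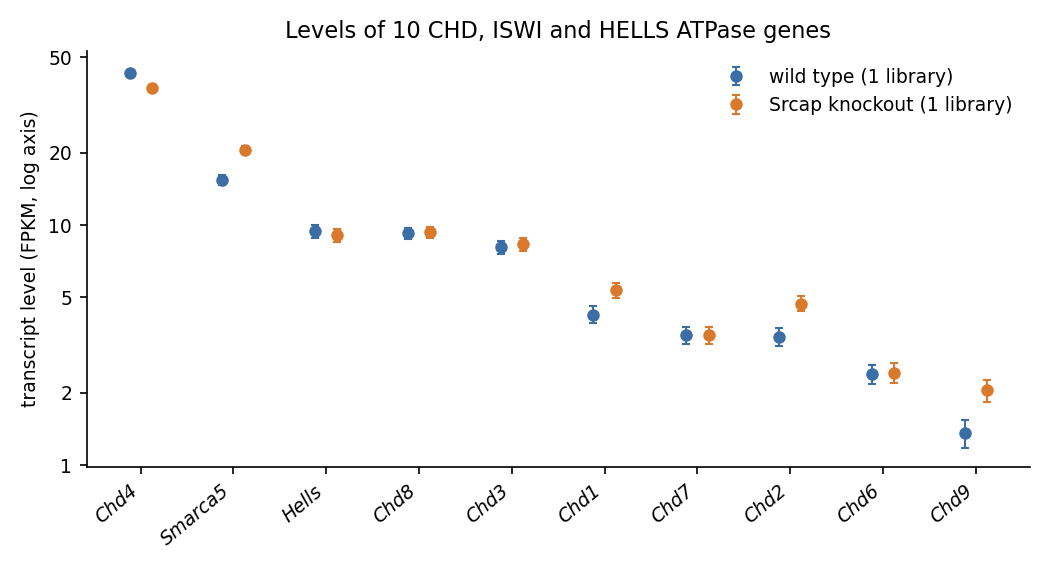
Level of each of the 10 ATPase genes in FPKM on a log axis, in order of the wild-type level, with 1 point per library and bars for the approximate 95% counting interval. Chd4 leads at 43.1 and 37.2 FPKM, and only Chd4, Smarca5, Chd1, Chd2 and Chd9 show bars that do not meet between the libraries. How common such a gap is among all genes was not measured.

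The order of levels was nearly the same in both libraries. In the wild type it ran Chd4, Smarca5, Hells, Chd8, Chd3, Chd1, Chd7, Chd2, Chd6 and Chd9, over a 31.7-fold range. In the knockout library Chd8 came before Hells and Chd2 before Chd7, and the range was 18.1-fold. The counting intervals of Hells and Chd8 overlapped in both libraries. In the knockout library alone, those of Chd3 overlapped with Hells and Chd8, those of Chd1 with Chd2, and those of Chd6 with Chd9. Chd2 and Chd7 overlapped in the wild type but not in the knockout library, at 4.71 and 3.49 FPKM.

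**Figure D2:**
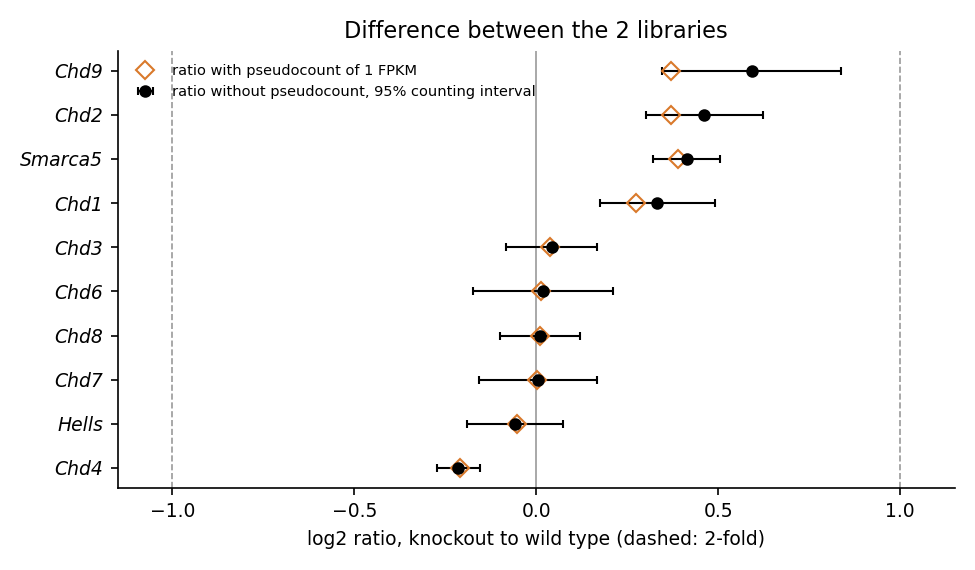
Log2 ratio of knockout to wild type for each gene, as deposited (filled points, with approximate 95% counting intervals) and after adding 1 FPKM (open diamonds); dashed lines mark 2-fold. The 4 genes at the top lie to the right of 0, from Chd1 at 0.33 to Chd9 at 0.59, and Chd4 lies to the left at -0.21.

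Read against all genes, the members gave no call. A call needed a ratio past 2-fold with the pseudocount and 1 FPKM or more in the library with the larger value. By this rule 0 of 10 members were higher (2.61% of all tested genes) and 0 of 10 lower (0.416%). At 1.5-fold, 0 of 10 were higher against 8.05% of all genes and 0 of 10 lower against 1.59%. At such shares a count of 0 among 10 genes does not set the members apart from other genes. All 10 had passed the minimum of 1 FPKM. The median log2 ratio of the members was 0.03, beside 0.02 for all tested genes, and their robust SD was 0.23 beside 0.24. A ratio above 0 was found for 8 of 10 members and 53.4% of all genes, but this count rests on genes near 0 and was 4 of 10 after rescaling to equal medians and 9 of 10 after rescaling to equal sums. Smarca5, Chd1, Chd2 and Chd9 were above 0 and Chd4 was below under each of the 4 rescalings. These moved log2 ratios by -0.055 to 0.085 at most, less than the ratio of any of these genes. A pseudocount cannot change a sign, so neither kind of run could have changed these directions.

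The summed level of the 10 genes was 100.2 FPKM in wild-type and 102.4 FPKM in knockout cells, while its make-up shifted between the 2 leading genes. Chd4 held 43.0% of the sum in wild-type and 36.3% in knockout cells. Smarca5 held 15.4% and 20.04%, Chd2 3.41% and 4.60%, Chd1 4.23% and 5.21%, and Chd9 1.36% and 2.0%. The share of Chd8 was 9.24% and 9.11%, and that of Hells 9.41% and 8.85%. Without Chd4, the other 9 genes summed to 57.1 and 65.3 FPKM, 14.3% higher in the knockout library.

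**Figure D3:**
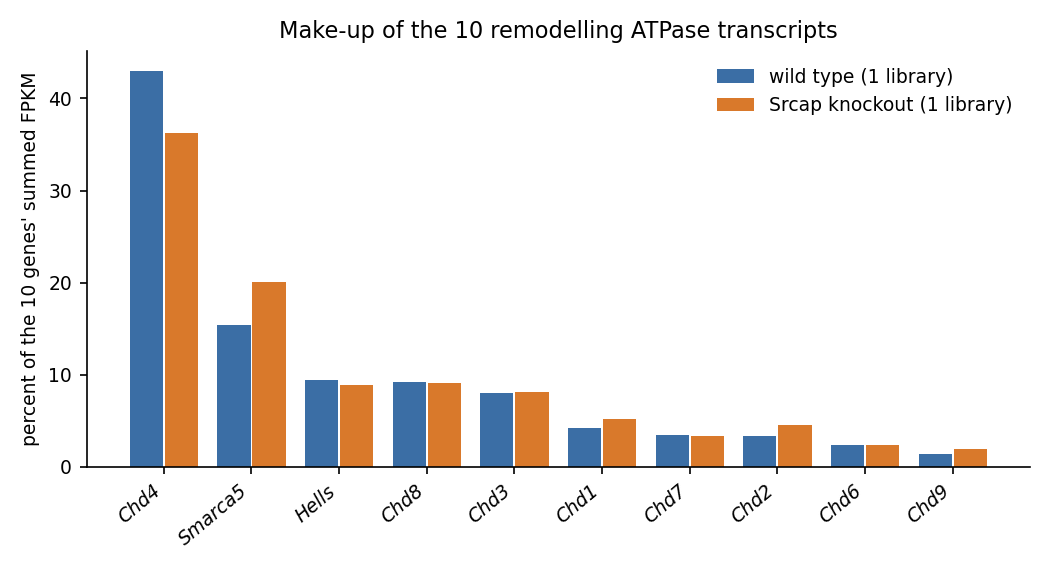
Share of each gene in the summed FPKM of the 10 genes, in percent, with 1 bar per library. The Chd4 bar is lower in the knockout library (36.3% against 43.0%) and the Smarca5 bar higher (20.04% against 15.4%).

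Of 12 subunits of NuRD, the complex of CHD4, 11 had a log2 ratio below 0, where 46.4% of all genes did, 0 were called in either direction, and the median was -0.14. Mta1, a scaffold subunit, was at 31.2 and 24.8 FPKM (log2 ratio -0.32), and Cdk2ap1 at 114 and 93.2 FPKM (-0.29). The histone chaperone Rbbp4 was at 61.3 and 52.1 FPKM and the methyl-CpG-binding family member Mbd3 at 98.6 and 85.9 FPKM. The deacetylase genes Hdac1, at 77.4 and 78.5 FPKM, and Hdac2, at 33.4 and 29.7 FPKM, and the scaffold Mta2, at 69.6 and 66.7 FPKM, were closer to equal. After rescaling to equal sums, which adds the same amount to the log2 ratio of every gene apart from the pseudocount, 5 of the 12 were above 0 in place of 1, with a median of -0.06 beside 0.10 for all tested genes.

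Partners of SMARCA5 went both ways. Of 9 listed, 8 reached 1 FPKM, 5 of them above 0 (53.4% of all genes) and 3 below, 0 were called, and the median was 0.05. After rescaling to equal medians 4 were above and 4 below 0, with a median of -0.001 beside -0.03 for all tested genes. The 3 highest ratios belonged to genes at low levels, between 1 and 5 FPKM. Rsf1 was at 1.14 and 1.81 FPKM (0.39), Baz2b at 3.20 and 4.14 FPKM (0.29) and Bptf at 3.86 and 4.69 FPKM (0.23). All genes with a mean level in that range had a median of 0.10 and a robust SD of 0.32. Baz1a, of the ACF and CHRAC complexes, was at 6.66 and 7.01 FPKM, and Baz1b, of the WICH complex, at 23.5 and 21.99 FPKM. Pole3, a histone-fold subunit of CHRAC and of DNA polymerase epsilon, was at 53.2 and 50.0 FPKM. Cecr2 was under the minimum, at 0.08 and 0.09 FPKM.

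Of 7 partners of HELLS and DNA methylation genes, 6 had a log2 ratio below 0, where 46.4% of all genes did, 0 were called and the median was -0.17, beside -0.05 for Hells itself. The gene above 0 was Zbtb24, at 5.21 and 5.44 FPKM, and 6 were below 0 under each rescaling. A pseudocount cannot change these signs. Cdca7, which recruits HELLS to chromatin and is also a marker of the Lgr5 stem cell list, measured 111 FPKM in wild-type and 71.1 FPKM in knockout cells (-0.64). Its paralog Cdca7l was at 21.6 and 16.7 FPKM (-0.35). The maintenance methyltransferase Dnmt1 was at 37.4 and 31.5 FPKM (-0.24), and Uhrf1, which guides it to replicated DNA, at 49.1 and 43.5 FPKM (-0.17). Of the 15 replication genes 14 were below 0 (46.4% of all genes) and 0 were called. The helicase genes Mcm6, Mcm2 and Mcm3 were at 79.8 and 61.9 FPKM (-0.36), 54.0 and 42.7 FPKM (-0.33) and 52.6 and 42.5 FPKM (-0.30). The ribonucleotide reductase gene Rrm1 was at 59.5 and 48.0 FPKM (-0.30).

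**Figure D4:**
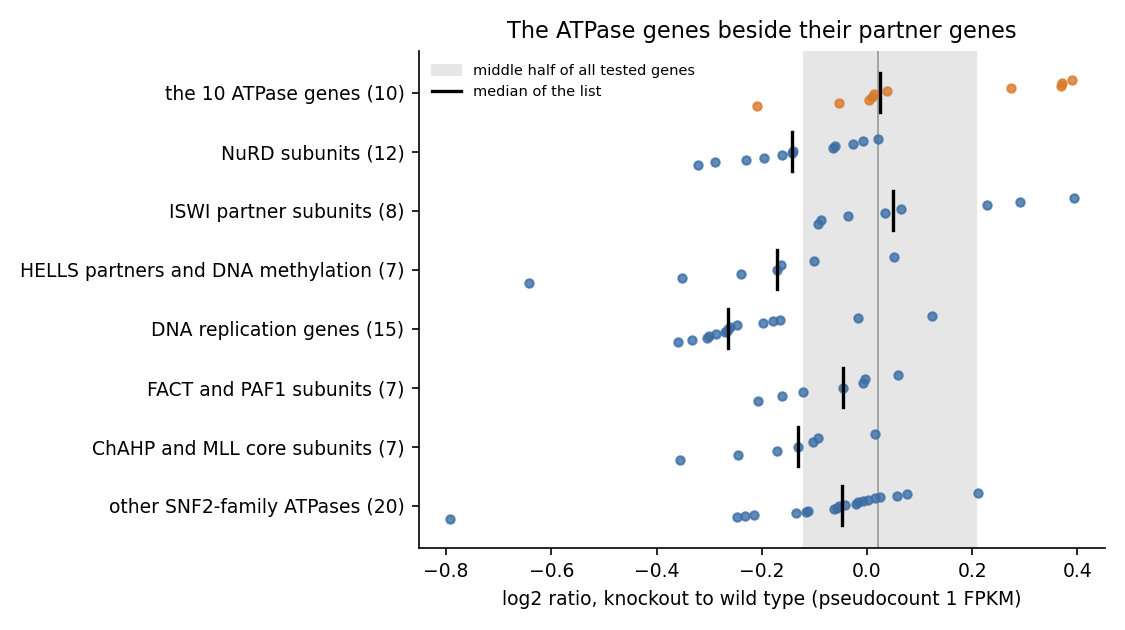
Log2 ratio of knockout to wild type after adding 1 FPKM, 1 point per gene, for the 10 ATPase genes and 7 lists with the number of tested genes in brackets; black bars are medians and the grey band spans the 25th to 75th percentile of all tested genes. The median is 0.03 for the ATPase genes, -0.14 for NuRD and -0.26 for replication genes, and the point near -0.8 is Srcap.

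Factors that act beside CHD1 on transcribed genes, the FACT chaperone and the PAF1 complex, had a median of -0.04, with 6 of 7 below 0 (46.4% of all genes) and 0 called. After rescaling to equal sums 4 of the 7 were above 0 and the median was 0.04, beside 0.10 for all tested genes. The FACT subunits differed in direction, with Ssrp1 at 91.0 and 78.7 FPKM (-0.21) and Supt16 at 14.4 and 15.1 FPKM (0.06), and the PAF1 subunits Leo1 and Ctr9 were at 10.1 and 8.88 FPKM and at 12.4 and 11.3 FPKM. Genes of ChAHP, the complex of CHD4 with ADNP and HP1 proteins, and of the MLL core, which has been found with CHD8, had a median of -0.13. Of these 7 genes 6 were below 0 (46.4% of all genes) and 0 were called. Cbx1, an HP1 gene, was at 38.9 and 30.2 FPKM (-0.36), Cbx3 at 57.9 and 51.3 FPKM (-0.17), and the MLL core genes Wdr5 and Dpy30 at 28.9 and 24.2 FPKM and at 111 and 102 FPKM.

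Among 22 other SNF2-family ATPases, 20 reached 1 FPKM, 14 were below 0 (46.4% of all genes) and 6 above, and 0 were called. Their median was -0.05, beside 0.03 for the 10 genes described, and a difference between the sets was not tested. After rescaling to equal sums 13 were above 0 and their median was 0.02, beside 0.10 for all tested genes. Srcap, the deleted gene, was the lowest at -0.79. The recombination motors Rad54l, at 12.1 and 10 FPKM (-0.25), and Rad54b, at 3.71 and 3.06 FPKM (-0.21), and the fork-remodelling gene Zranb3, at 1.83 and 1.41 FPKM (-0.23), followed. Chd1l, an ATPase activated by poly(ADP-ribose), was at 11.9 and 10.9 FPKM. No gene of this list had a ratio as high as those of Smarca5, Chd1, Chd2 or Chd9, since its highest was 0.21.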

How the data were processed

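RNA sequencing libraries of sorted cells, 1 wild type and 1 Srcap knockout, were compared. The labels' protocols give single-end reads of 50 bp, with 59000000 per sample on average. The authors deposited FPKM values per gene, per the file headers. Per the submitters' processing notes, the build was mm10 and the tools included RSEM, Bowtie2 and HISAT, with neither version nor role stated. Tables were joined on the gene identifier, and members were taken by symbol. None of the 27 symbols that read as dates was a member, and 0 members shared both values with another gene. Of 17840 identifiers, 17795 matched RefSeq genes of GRCm38.p6, the assembly of mm10.

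Log2 ratios used a pseudocount of 1 FPKM, and genes were tested where the larger value reached 1 FPKM. No p-value is possible with 1 library per genotype. The read step was the value that put most FPKM times length products within 0.2 of a whole read, over genes with a single GENCODE M21 transcript under 1500 nucleotides. It was 0.0583 FPKM kb in the wild type (72.8% of products, 233 genes) and 0.0584 in the knockout library (76.0%, 248 genes). Steps below 0.03 FPKM kb were not scanned, so a depth near 59000000 reads could not have been found. The share of products that would lie this near a whole read by chance was not measured. Member reads are estimates from these steps and the shortest RefSeq-matched transcript. The members, lists and settings were chosen with earlier results of these data known. Named partner genes were up to 4 per list with the largest absolute ratio, plus paralogs and direct partners chosen by name. Python 3.11.15, pandas 2.3.3 and numpy 2.4.6 were used.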

Additional observations from a re-analysis of the deposited data

How the results depend on the processing

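The count of members called was 0 in both directions under every alternative run: pseudocounts of 0.1 and 5 FPKM, 4 rescalings, no filter, a 10 FPKM minimum, and 1.5-fold and 3-fold rules. For the members, the 5 FPKM pseudocount, the absent filter, the 10 FPKM minimum and the 3-fold rule could not have added a call. Nor could the 0.1 FPKM pseudocount or the rescalings. The largest log2 ratio as deposited was 0.59, that of Chd9, and rescaling moved ratios by 0.085 at most, which falls short of 2-fold. The counts over all genes, 308 higher and 49 lower, were 656 and 110 with a pseudocount of 0.1 FPKM, 108 and 23 with 5 FPKM, 121 and 30 with the 10 FPKM minimum, 949 and 187 at 1.5-fold, and 99 and 16 at 3-fold. After rescaling to a sum of 1000000, 472 were higher. The fold rule, minimum and pseudocount change these counts by their construction. Hells was above 0 only after rescaling to equal sums, at 0.03. Chd6, Chd7 and Chd8 were below 0 after rescaling to equal medians or upper quartiles, and Chd3 after equal medians. No paired analysis was possible because each genotype has 1 library. Counting error limits Chd9 most, at about 220 wild-type reads.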
